A study of Mus musculus with 2 samples.

Results

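The genes described here are 35 genes of fatty acid oxidation, taken by symbol from the 27998 genes of a single-cell count matrix of mouse adipocyte precursor cells. All 35 were found, each once. They cover the activation of fatty acids to acyl-CoA (4 genes), the carnitine shuttle (6), the mitochondrial acyl-CoA dehydrogenases (5), the hydratase, dehydrogenase and thiolase steps (5), auxiliary enzymes for unsaturated chains (4), peroxisomal transport and oxidation (6), electron transfer (3), and a pair of genes of fuel selection and uncoupling (2).

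The cells were flow-sorted from the subcutaneous adipose tissue of wild-type, cross-fostered pups aged 12 days, with 1 sample for each of 2 conditions, dams whose milk fat had a high or a low n-6/n-3 polyunsaturated fatty acid (PUFA) ratio. The matrix joins 2 barcode suffixes, called library 1 (suffix 1) and library 2 (suffix 2). No label ties a suffix to a milk fat condition, so the libraries are compared without a diet, they are not replicates of 1 condition, and neither the number of pups per sample nor any pooling is given in the sources used here. With 1 library per condition no test between conditions is possible, and intervals cover counting error only.

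Fatty acid oxidation shortens acyl chains in cycles. Long-chain acyl-CoA made by the synthetases is passed to carnitine by CPT1 on the outer mitochondrial membrane, carried inward by the translocase Slc25a20, and returned to CoA by CPT2. Each cycle of dehydrogenation, hydration, a further dehydrogenation and thiolysis releases acetyl-CoA, and the first dehydrogenation hands its electrons to the flavoprotein of Etfa and Etfb and then to Etfdh in the inner membrane. Peroxisomes shorten very long and branched chains before mitochondria finish them. In adipose tissue the pathway is best known from brown and beige fat cells.

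States were set from marker UMIs (unique molecular identifiers, 1 per captured RNA molecule). The balance of a cell is its count over 7 committed-side markers (Icam1, Col15a1, Col4a1, Col4a2, Ggt5, Steap4 and Prlr), divided by that list's mean of 10.5 UMIs per cell, as a share of the sum of this value and the like value over 7 progenitor-side markers (Dpp4, Pi16, Wnt2, Anxa3, Bmp7, Sema3c and Cd55, mean 37.6 UMIs). Cells below a balance of 0.3333 are called progenitor-side and cells above 0.6667 committed-side. In library 2, 1117 cells were committed-side, 534 midway and 1598 progenitor-side, and in library 1 these numbers were 1029, 551 and 1445. A further 266 cells held the markers of an F3-type state (F3, Clec11a, Fmo2, Vit, C2 and Meox1), 201 were cycling by Mki67 and Top2a, 15 had too few marker UMIs, and 129 barcodes carried endothelial, immune or erythroid markers and were kept out of the comparisons of states and libraries. Of the cells placed by balance, 14.0% lay within 0.05 of a cut. The states are ranges of a score, not cell types, and no marker is a member. The sorted population carried the markers of its label: Pdgfra, Pdgfrb, Ly6a, Cd34 and Itgb1 together gave 4131 counts per 1000000 UMIs (CPM) in the precursors.

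The members took 0.113% of all UMIs in kept cells. The median cell had 11251 UMIs on the committed side and 13358 on the progenitor side, and levels are given as CPM of the summed UMIs of a state, so a smaller cell does not by itself lower them. Over all precursors 29 members reached 10 CPM, and 6 did not. Those 6 were Cpt2 at 9.18 CPM, the peroxisomal oxidase Acox3 at 8.85 CPM, Acad9 at 5.90 CPM, the synthetase Acsl1 at 3.59 CPM, the pyruvate dehydrogenase kinase Pdk4 at 1.26 CPM, and the peroxisomal bifunctional enzyme Ehhadh at 0.454 CPM, which had 38 UMIs in 6756 cells. These are 3′ end UMI counts, and how well the RNA of each gene is captured was not measured, so levels of different genes are not ranked here.

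The promoters of 4 members are shown because the results turn on these genes. Ucp2 is the only member called between the committed and the progenitor side. Etfa and Etfb make up the same flavoprotein but differed from each other between the states. Hadha and Hadhb, the subunits of the mitochondrial trifunctional protein, start 86 bases apart on opposite strands of chromosome 5 in the GENCODE annotation. The window of Hadhb holds that start of Hadha. The RefSeq start of Hadha, from its own window at chr5:30154931-30155230 on the minus strand, lies outside the Hadhb window. Each window is RefSeq sequence on GRCm38.p6, from 250 bases before to 50 bases after the annotated start, 5′ to 3′ on the gene's strand, with matches to 5 motifs in capitals. The Ucp2 window is chr7:100493108-100493407 on the plus strand, the Etfa window chr9:55512194-55512493 on the minus strand, the Etfb window chr7:43443822-43444121 on the plus strand, and the Hadhb window chr5:30155003-30155302 on the plus strand.
Ucp2 promoter: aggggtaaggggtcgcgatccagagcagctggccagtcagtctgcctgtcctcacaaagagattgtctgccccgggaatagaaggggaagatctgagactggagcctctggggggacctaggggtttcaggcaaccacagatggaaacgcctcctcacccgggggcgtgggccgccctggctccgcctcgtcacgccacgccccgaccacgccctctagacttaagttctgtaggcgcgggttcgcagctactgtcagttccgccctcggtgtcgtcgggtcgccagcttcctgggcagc
Etfa promoter: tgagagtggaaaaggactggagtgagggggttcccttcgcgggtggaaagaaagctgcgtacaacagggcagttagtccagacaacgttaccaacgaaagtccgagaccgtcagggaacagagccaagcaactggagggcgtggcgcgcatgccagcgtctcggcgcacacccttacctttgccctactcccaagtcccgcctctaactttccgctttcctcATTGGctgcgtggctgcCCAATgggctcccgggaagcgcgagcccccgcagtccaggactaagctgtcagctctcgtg
Etfb promoter: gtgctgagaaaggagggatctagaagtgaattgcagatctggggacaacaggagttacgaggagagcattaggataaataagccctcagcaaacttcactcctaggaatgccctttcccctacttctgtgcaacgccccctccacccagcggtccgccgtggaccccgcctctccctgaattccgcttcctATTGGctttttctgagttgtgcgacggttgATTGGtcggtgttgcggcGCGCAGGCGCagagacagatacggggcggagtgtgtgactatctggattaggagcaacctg
Hadhb promoter: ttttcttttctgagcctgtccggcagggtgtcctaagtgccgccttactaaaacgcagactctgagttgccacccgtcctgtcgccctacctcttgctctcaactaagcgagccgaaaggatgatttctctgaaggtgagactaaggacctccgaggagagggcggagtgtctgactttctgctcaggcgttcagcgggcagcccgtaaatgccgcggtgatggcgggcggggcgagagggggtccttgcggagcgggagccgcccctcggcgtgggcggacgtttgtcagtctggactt

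The motifs, searched on both strands, were the direct repeat bound by PPAR and RXR (a pair of AGGNCA half-sites with 1 base between them), TCAAGGTCA (the site of estrogen-related receptors), the NRF1 site (GCGC, then TGCGC after 1 free base), CCAAT and CCGGAAG (ETS factors). RefSeq windows were found for 30 members, 32 windows in all. In the sequences printed, Etfa holds CCAAT on each strand, Etfb holds it at 2 places on the opposite strand together with an NRF1 match, and the Ucp2 and Hadhb windows hold none of the 5. Over the members' 32 windows CCAAT occurred in 43.8%, against 37.4% of all 32851 windows. NRF1 matches occurred in 9.38%, against 4.60%, in the windows of Abcd3, Etfb and Etfdh. ETS matches occurred in 9.38%, against 8.86%, in those of Cpt2, Crot and Slc25a20. The PPAR and estrogen-related receptor motifs occurred in 0 of the 32 windows, against 0.381% and 0.423% of all windows. A match is a string of letters in a window and was not tied to any change of level.

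Committed-side cells were compared with progenitor-side cells to see how each step stood on both sides of the balance. Ucp2, which encodes an inner-membrane carrier named for its likeness to the uncoupling protein of brown fat, rose, and no other member did. The carnitine shuttle and the electron-transfer genes leaned lower, with 7 intervals below 0 among their 9 members, beside 43.9% of all genes tested. Etfb, among the 7, was near the median of all genes, and none of the 9 passed the fold threshold. Acads, Hadh and Scp2 leaned higher by less than the threshold. A member was called when it had at least 10 CPM in either sum, differed by at least 1.5-fold the same way in both libraries, and had a 95% counting interval of the pooled fold that left out 1.

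Of 30 members tested, 1 rose, beside 6.99% of all 6934 genes tested, and 0 fell, beside 7.64%. The fold was above 1 for 8 members and below 1 for 22. Their median log2 fold was -0.12, and that of all genes tested was -0.09. With TMM scaling the medians were -0.06 and -0.02. Counting intervals lay above 0 for 4 members and below 0 for 11, beside 24.5% and 43.9% of all genes. Both libraries put the fold on the same side for 25 of the 30, with 6 above and 19 below in each, beside 5988 of all 6934 genes tested (86.4%).

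**Figure D1:**
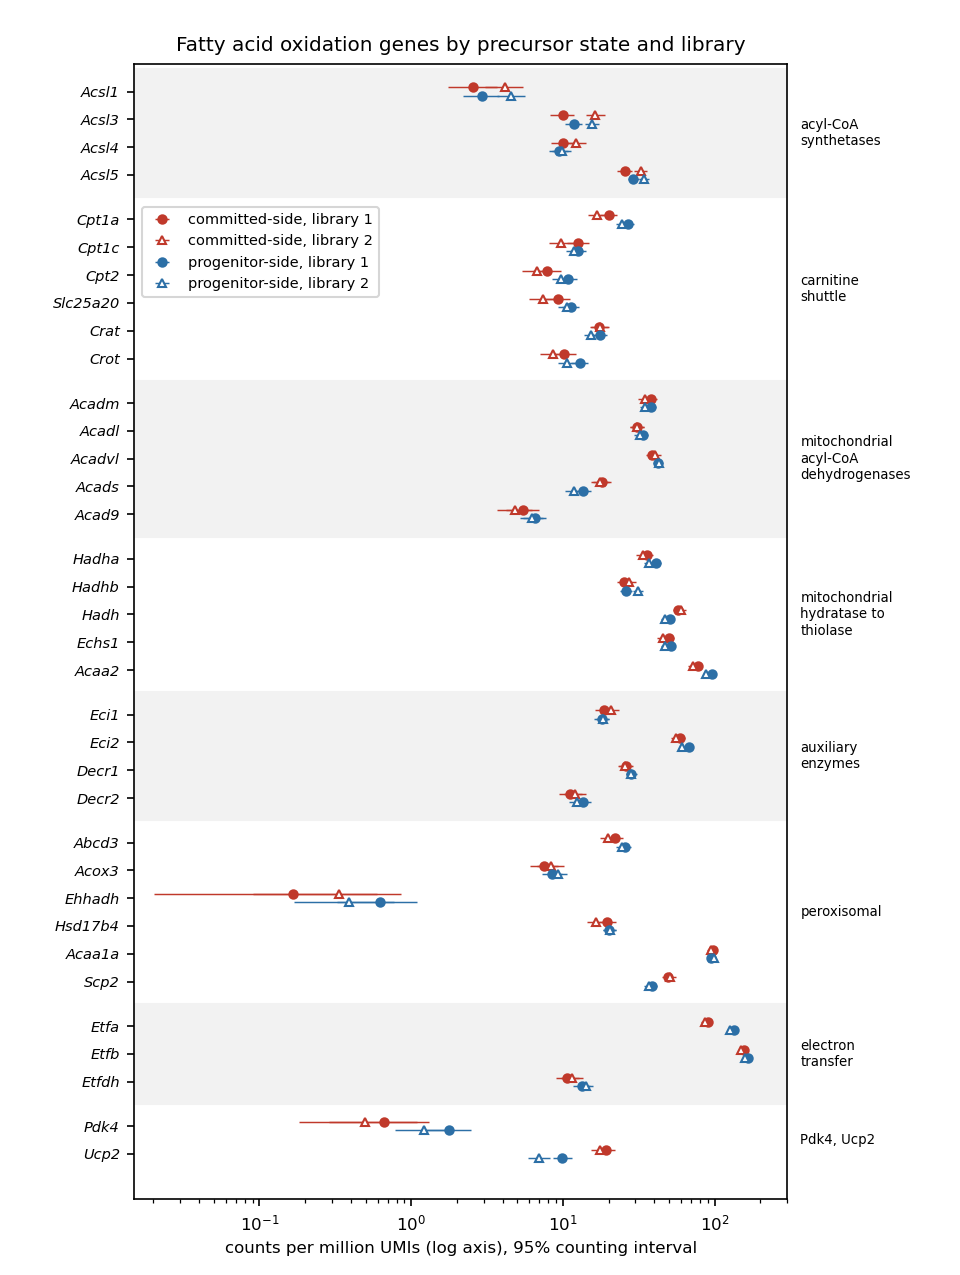
Level of each member in CPM (log axis) in committed-side (red) and progenitor-side (blue) cells, library 1 filled and library 2 open, with 95% counting intervals. Ucp2 is the only row where committed-side cells stand above progenitor-side cells by more than 1.5-fold in both libraries. Etfa, Cpt1a and Cpt2 stand below by less than 1.5-fold. Pdk4 stands below by more than 1.5-fold in both libraries, from 14 UMIs in committed-side and 59 in progenitor-side cells, under the level minimum.

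Ucp2 (ENSMUSG00000033685, chr7:100493337-100502020, plus strand, GRCm38) had 19.3 CPM in committed-side cells of library 1 and 17.6 CPM in those of library 2, against 9.89 and 6.95 CPM in the progenitor-side cells of the same libraries. The lowest committed-side value lay above the highest progenitor-side value. The pooled log2 fold was 1.14 (95% counting interval 0.93 to 1.35), from 445 UMIs in committed-side and 333 in progenitor-side cells, with 0.97 in library 1 and 1.34 in library 2. Midway cells lay between, at 14.5 and 12.6 CPM in libraries 1 and 2.

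Markers of other cell types were measured beside this difference, because Ucp2 is known from immune cells. The 8 immune markers summed to 24.2 CPM in committed-side cells and 22.6 CPM in progenitor-side cells, and the 5 endothelial markers to 30.1 CPM in committed-side cells and 29.0 CPM in progenitor-side cells. The 4 Schwann cell markers did differ, at 120.9 CPM in committed-side cells against 22.8 CPM in progenitor-side cells. Library 2 carried most of it, with 202.6 CPM in committed-side cells against 27.5 CPM in progenitor-side cells, while in library 1 the list summed to 39.3 CPM in committed-side cells against 17.8 CPM in progenitor-side cells. Of its 4 markers 1, Sox10, was at 0 on the progenitor side, with 1 UMI on the committed side. In committed-side cells the mature adipocyte list summed to 7.84 CPM and the brown or beige list to 7.43 CPM, against 1.96 CPM and 1.23 CPM in progenitor-side cells. Without any cell holding an immune or Schwann UMI the Ucp2 log2 fold was 1.22, and without any cell holding an adipocyte-list UMI it was 1.14. The opposite-strand neighbour at the 3′ end of Ucp2, Dnajb13, had 4 UMIs in committed-side cells and 11 in progenitor-side cells.

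**Figure D2:**
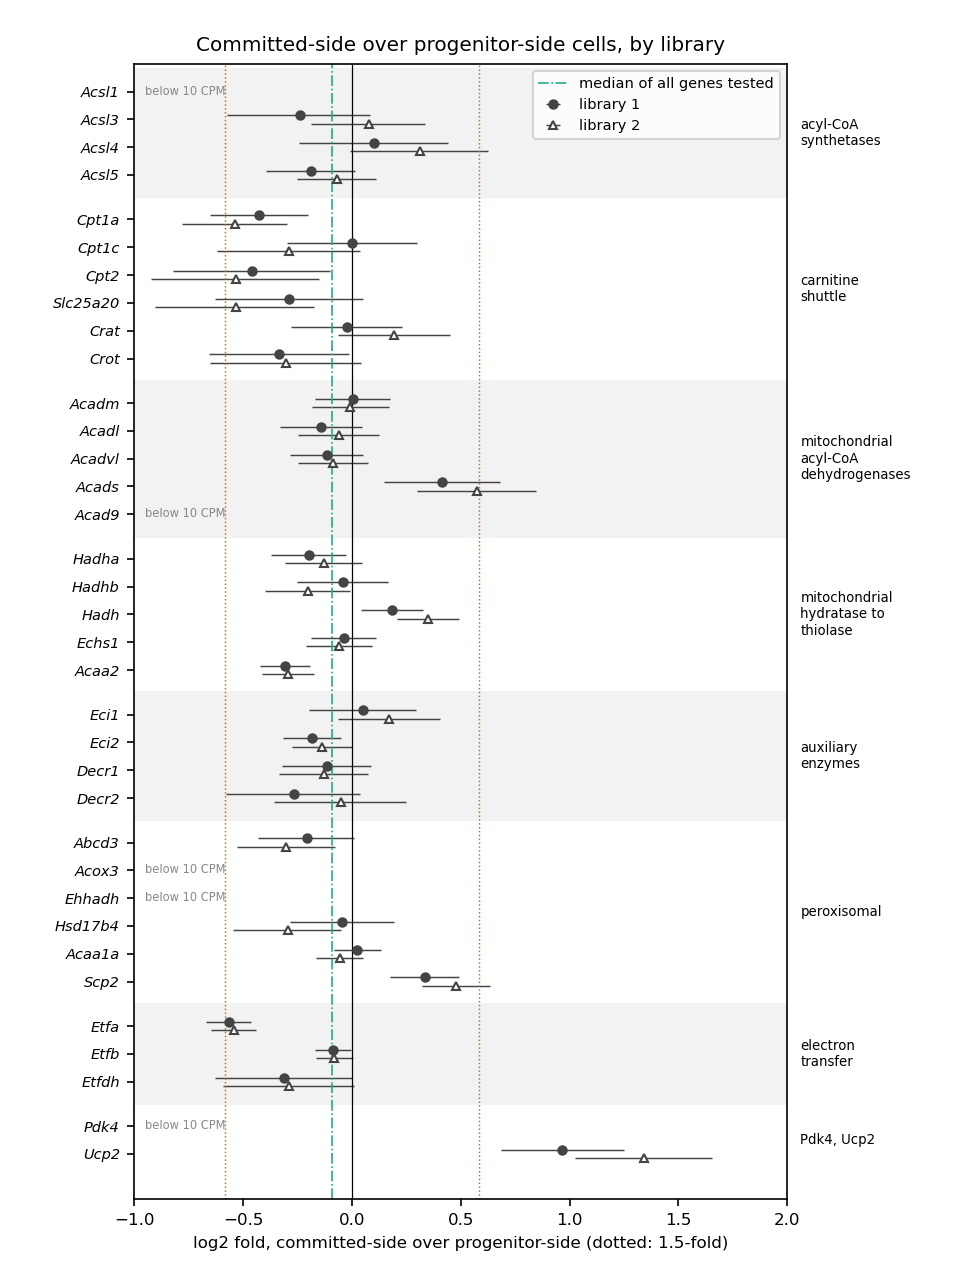
Log2 fold of committed-side over progenitor-side cells for each member tested, library 1 filled and library 2 open, with 95% counting intervals. Dotted lines mark 1.5-fold and the dash-dotted line the median of all genes tested. Ucp2 is past the upper line in both libraries, and Etfa lies close to the lower line.

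Among the acyl-CoA synthetases, which load free fatty acids onto CoA, no interval of the committed-side over progenitor-side fold left out 0. Acsl4, known for its use of arachidonate, was at log2 0.21, Acsl3 at -0.06 and Acsl5 at -0.13. Acsl1, the main synthetase of mature fat cells, was below the level minimum, with 81 UMIs in committed-side cells and 150 in progenitor-side cells. The summed step stood at 48.0 and 65.3 CPM in committed-side cells of libraries 1 and 2, against 53.1 and 64.1 CPM in progenitor-side cells, so the libraries differed by more than the states.

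In the carnitine shuttle, Cpt1a, the liver-type outer-membrane enzyme and the step at which malonyl-CoA acts, had 20.0 and 16.9 CPM in committed-side cells of libraries 1 and 2, against 26.9 and 24.5 CPM in progenitor-side cells. The states did not overlap, and the log2 fold was -0.48 (-0.64 to -0.31). Cpt2, the inner-membrane partner, had 7.88 and 6.73 CPM on the committed side, against 10.8 and 9.73 CPM on the progenitor side, a log2 fold of -0.49 (-0.75 to -0.23). Slc25a20, the carrier between them, had 9.20 and 7.39 CPM in committed-side cells against 11.2 and 10.7 CPM in progenitor-side cells, a log2 fold of -0.40 (-0.65 to -0.16). Crot, the peroxisomal octanoyltransferase that sends shortened chains on to mitochondria, was at -0.31 (-0.55 to -0.08). Cpt1c, the isoform best known from neurons, and Crat, which handles acetyl groups, had intervals that held 0. The shuttle's median log2 fold was -0.36 over its 6 members, and its summed level was 77.1 and 66.8 CPM in committed-side cells against 91.9 and 82.7 CPM in progenitor-side cells.

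The mitochondrial dehydrogenases start each cycle and differ in the chain length they prefer. Acads, for short chains, had 18.2 and 17.5 CPM in committed-side cells of libraries 1 and 2, against 13.6 and 11.8 CPM in progenitor-side cells. The states did not overlap, and the log2 fold of 0.49 (0.31 to 0.68) stayed under the threshold. Acadm for medium chains was at 0.00, Acadl for long chains at -0.10 and Acadvl for very long chains at -0.10, all with intervals holding 0. Acad9, which also serves the assembly of respiratory complex I, had 124 UMIs in committed-side cells and 253 in progenitor-side cells and was below the level minimum.

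Of the enzymes that complete the cycle, Hadh, the dehydrogenase for shorter chains, had 57.2 and 60.1 CPM in committed-side cells against 50.3 and 47.2 CPM in progenitor-side cells, a log2 fold of 0.27 (0.17 to 0.37). Acaa2, the mitochondrial thiolase, had 77.0 and 71.6 CPM in committed-side cells against 95.3 and 87.8 CPM in progenitor-side cells, a log2 fold of -0.30 (-0.38 to -0.22). The subunits of the trifunctional protein stayed together, at -0.16 for Hadha and -0.13 for Hadhb. Hadha gave 1.32 UMIs per Hadhb UMI in committed-side cells and 1.35 in progenitor-side cells. Echs1, the short-chain hydratase, was at -0.05. The auxiliary enzymes, which move or reduce double bonds so that unsaturated chains can pass, ranged from log2 -0.16 for the isomerase Eci2 and the peroxisomal reductase Decr2 to 0.11 for the isomerase Eci1. The interval of Eci2 left out 0 and the others did not, with the mitochondrial reductase Decr1 at -0.12.

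In peroxisomes, Scp2, whose longer form is a thiolase for branched chains, had 48.8 and 51.0 CPM in committed-side cells against 38.8 and 36.6 CPM in progenitor-side cells, a log2 fold of 0.41 (0.30 to 0.52). Its 3′ end is overlapped by Podn on the same strand, whose level was 33.1 CPM on the committed side and 16.4 CPM on the progenitor side, so reads could have been split between them and the Scp2 value is uncertain. Abcd3, a transporter of the peroxisomal membrane, leaned the other way, at 22.1 and 19.9 CPM in committed-side cells against 25.5 and 24.6 CPM in progenitor-side cells, a log2 fold of -0.25 (-0.41 to -0.10). The bifunctional enzyme Hsd17b4 and the thiolase Acaa1a had intervals holding 0. Acaa1a shares sequence with its copy Acaa1b, which had 3.32 CPM in committed-side cells and 0.654 CPM in progenitor-side cells. Over the 6 peroxisomal members tested, Crot and Decr2 included, the median log2 fold was -0.16, and over the 16 mitochondrial ones it was -0.11. Eci2, Cpt1a, Cpt1c, Crat, the synthetases, Pdk4 and Ucp2 were counted under neither organelle. The summed levels stood in the other order, at 213.6 CPM in committed-side and 213.6 CPM in progenitor-side cells for the peroxisomal genes, and 684 CPM in committed-side against 760 CPM in progenitor-side cells for the mitochondrial ones. These sums weigh genes of high level most. They cover 8 peroxisomal and 17 mitochondrial genes, members under the level minimum included, so they and the medians cover unlike sets. The peroxisomal sum holds Scp2, uncertain as said, and the mitochondrial sum holds Etfa, described below. The order of the sums without these genes, or with Eci2 added, was not tested.

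In electron transfer the flavoprotein's subunits differed. Etfa had 90.5 and 86.4 CPM in committed-side cells of libraries 1 and 2, against 133.9 and 125.9 CPM in progenitor-side cells. No committed-side value reached a progenitor-side value, and the log2 fold was -0.55 (-0.63 to -0.48), just short of 1.5-fold. Etfb had 155.4 and 149.3 CPM in committed-side cells against 164.9 and 157.9 CPM in progenitor-side cells, a log2 fold of -0.08. Etfa thus gave 0.580 UMIs per Etfb UMI in committed-side cells (0.550 to 0.612) and 0.805 in progenitor-side cells (0.775 to 0.835). The 2 intervals did not overlap, and the ratio within a state differed little between libraries, at 0.582 and 0.578 on the committed side and 0.812 and 0.797 on the progenitor side in libraries 1 and 2. Gm45233 overlaps the 3′ end of Etfb on the same strand, so reads could have been split between them. Its level was not examined here, and the Etfb values and these ratios are uncertain to that extent. Etfdh, the inner-membrane oxidoreductase, was at -0.30 (-0.52 to -0.09). Pdk4, which turns pyruvate away from oxidation, had 14 UMIs in committed-side cells and 59 in progenitor-side cells and was too low to be called.

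Along 5 bins of the balance from the progenitor to the committed end, Etfa was lower in each bin than in the bin before it, in each library. From bin 1 to bin 5 in library 1 it had 139.5, 123.5, 113.0, 92.2 and 90.0 CPM, and in library 2 it had 128.1, 120.9, 106.6, 98.4 and 82.2 CPM. Etfb lay between 151.4 and 165.8 CPM in library 1 and between 145.6 and 162.9 CPM in library 2 over the same bins. Ucp2 had 8.67, 11.3, 14.6, 18.8 and 19.8 CPM in library 1 and 6.50, 7.81, 15.3, 12.0 and 19.2 CPM in library 2, so each bin stood above the one before it except bin 4 of library 2, where the interval was 8.83 to 16.0 CPM. Pooled over libraries, the levels of Hadh and Ucp2 were higher at every step, those of Etfa and Acaa2 lower at every step, and the other 31 members had a mixed course. Depth also differed along the bins, with medians of 13247, 13453.5, 12565, 12073 and 11059 UMIs per cell from bin 1 to bin 5. With cells thinned to 7470 UMIs each, leaving out 689 shallower cells (314 in library 2 and 375 in library 1), the committed-side over progenitor-side log2 fold was -0.57 for Etfa and 1.11 for Ucp2.

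**Figure D3:**
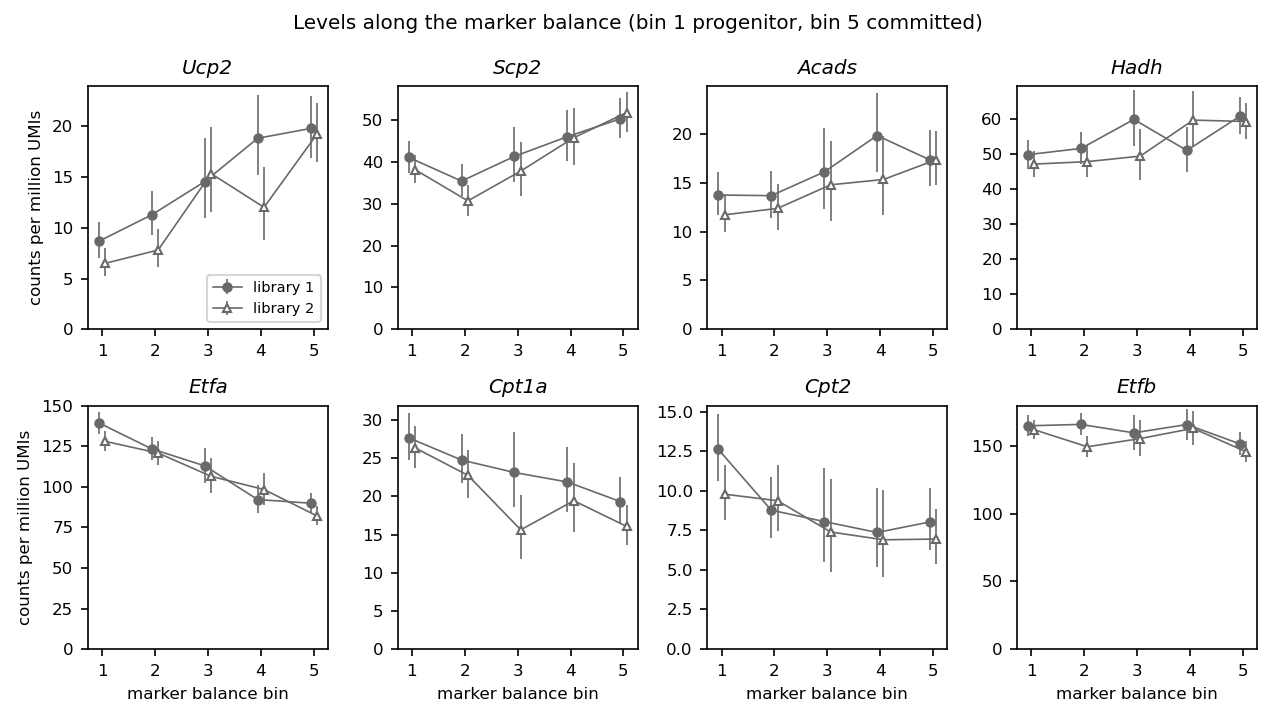
Level of 8 members in CPM along 5 equal bins of the marker balance, bin 1 at the progenitor end and bin 5 at the committed end, with 95% counting intervals, library 1 filled and library 2 open. In both libraries Ucp2 stands higher and Etfa lower in bin 5 than in bin 1, and Etfb changes by less.

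Genes around the pathway were described by lists. In the regulators, Pparg, the receptor that drives fat cell formation, rose to 19.7 CPM in committed-side cells, against 4.52 CPM in progenitor-side cells, a log2 fold of 2.12 (1.87 to 2.38). It was 1 of 12 regulators tested that passed, and 0 fell, beside 6.99% of all genes tested that rose and 7.64% that fell. The same shares stand beside every list of this paragraph. In lists of this size a count of 0 or 1 says little about the list. Ppara, the receptor best known for inducing these genes in liver, had 4 UMIs in committed-side cells and 11 in progenitor-side cells, and the coactivators Ppargc1a and Ppargc1b had 10 and 10 UMIs on the committed side and 8 and 12 on the progenitor side. Of 9 acyl-CoA thioesterases and binding proteins tested, Dbi, which carries acyl-CoA in the cytosol, rose to 472 CPM in committed-side cells, against 246 CPM in progenitor-side cells. Oxct1, which opens ketone use, fell to 50.3 CPM in committed-side cells, against 95.7 CPM in progenitor-side cells. Acsf2, an acyl-CoA synthetase of mitochondria, rose to 12.1 CPM in committed-side cells, against 2.92 CPM in progenitor-side cells, the only one called of 9 short- and branched-chain genes tested. None passed among 17 tricarboxylic acid cycle genes (median -0.06), 8 peroxin genes (median -0.23), 6 pyruvate dehydrogenase genes (median -0.06), 4 genes of malonyl-CoA and fatty acid synthesis (median -0.10) or 2 carnitine supply genes tested.

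F3-type cells were compared with all other non-cycling precursors. Etfa fell there, and it was the only member called. It had 64.1 and 70.3 CPM in F3-type cells of libraries 1 and 2, against 115.7 and 110.6 CPM in the others, a log2 fold of -0.75 (-0.96 to -0.54) with no overlap. Of 30 members tested, 1 fell, beside 3.50% of all 7004 genes, and 0 rose, beside 4.60%. The members' median log2 fold was -0.09 and that of all genes -0.02. The sign of the members' median differed between the libraries, at 0.06 with library 1 alone and -0.21 with library 2 alone.

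The F3-type cells gave 0.475 Etfa UMIs per Etfb UMI (0.398 to 0.566), below the ratio in committed-side cells given above, and the 2 intervals overlapped. The limit given above for Etfb holds here too. Abcd3 had 37.0 and 33.2 CPM in F3-type cells against 24.1 and 22.9 CPM in the others, a log2 fold of 0.57 (0.27 to 0.86) that missed the threshold in library 2. Scp2, uncertain for the reason given above, was at 0.50 (0.27 to 0.73), with Podn at 0.55 in the same comparison. Ucp2 had 17.4 and 26.0 CPM in F3-type cells against 13.8 and 11.2 CPM in the others, a log2 fold of 0.82, and the libraries disagreed on its size, with 0.33 in library 1 and 1.22 in library 2. The fold was on opposite sides in the 2 libraries for 12 of the 30 members, Cpt2 among them, beside 2311 of all 7004 genes. Against committed-side cells alone, a comparison chosen after the data were seen, Abcd3 rose to 35.0 CPM in F3-type cells, against 21.0 CPM in committed-side cells (log2 0.74, 0.41 to 1.05), beside 4.04% of all genes called higher there and 2.03% called lower, while Etfa at -0.39 no longer passed. Dbi and Pparg fell in that comparison, at log2 -0.66 and -1.42. The F3-type cells numbered 117 and 149, so a member near 10 CPM rests on about 30 UMIs.

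Cycling cells were compared with non-cycling precursors, and no member was called in either direction, of 30 tested. Beside this, 10.4% of all 7369 genes rose and 1.09% fell with scaling by total count, which is 768 and 80 genes, and 572 rose and 198 fell with TMM scaling. The members' median log2 fold was 0.07 beside 0.10 for all genes, and with TMM scaling these were -0.09 and -0.06. With cells thinned to 1 depth and scaling by total count they were -0.09 and 0.12. The sign of the members' median thus changed with the scaling and with the thinning. Acadl had 58.4 and 40.4 CPM in cycling cells of libraries 1 and 2, against 32.7 and 31.1 CPM in non-cycling cells, a log2 fold of 0.57 (0.33 to 0.80), larger in library 1. Acadm and Acadvl, its neighbours in chain length, leaned the other way, at -0.36 (-0.68 to -0.06) and -0.32 (-0.61 to -0.04), as did Acaa2 at -0.38. Acsl3 was at 0.57, Etfdh at 0.45, Hadhb at 0.30 and Etfa at 0.29, each with an interval above 0 under scaling by total count. Ucp2 was at 0.43 (0.01 to 0.82), with 0.84 in library 1 and 0.09 in library 2. The cycling cells held 2952 CPM of progenitor-side markers and 784 CPM of committed-side markers, against 2426 and 643 CPM in midway cells, 4464 and 254 CPM in progenitor-side cells and 1079 and 1967 CPM in committed-side cells. Among the surrounding genes, the thioesterase Acot7 rose to 27.4 CPM in cycling cells, against 13.6 CPM in non-cycling cells, Idh3a and Oxct1 rose, at log2 0.90 and 0.72, and the citrate carrier Slc25a1 fell, at -1.13. Each was the only call in its list, of 9 thioesterases and binding proteins, 17 tricarboxylic acid cycle, 5 ketone body and 4 malonyl-CoA and synthesis genes tested. The other surrounding lists had no call, and the shares of all genes given above stand beside these counts.

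**Figure D4:**
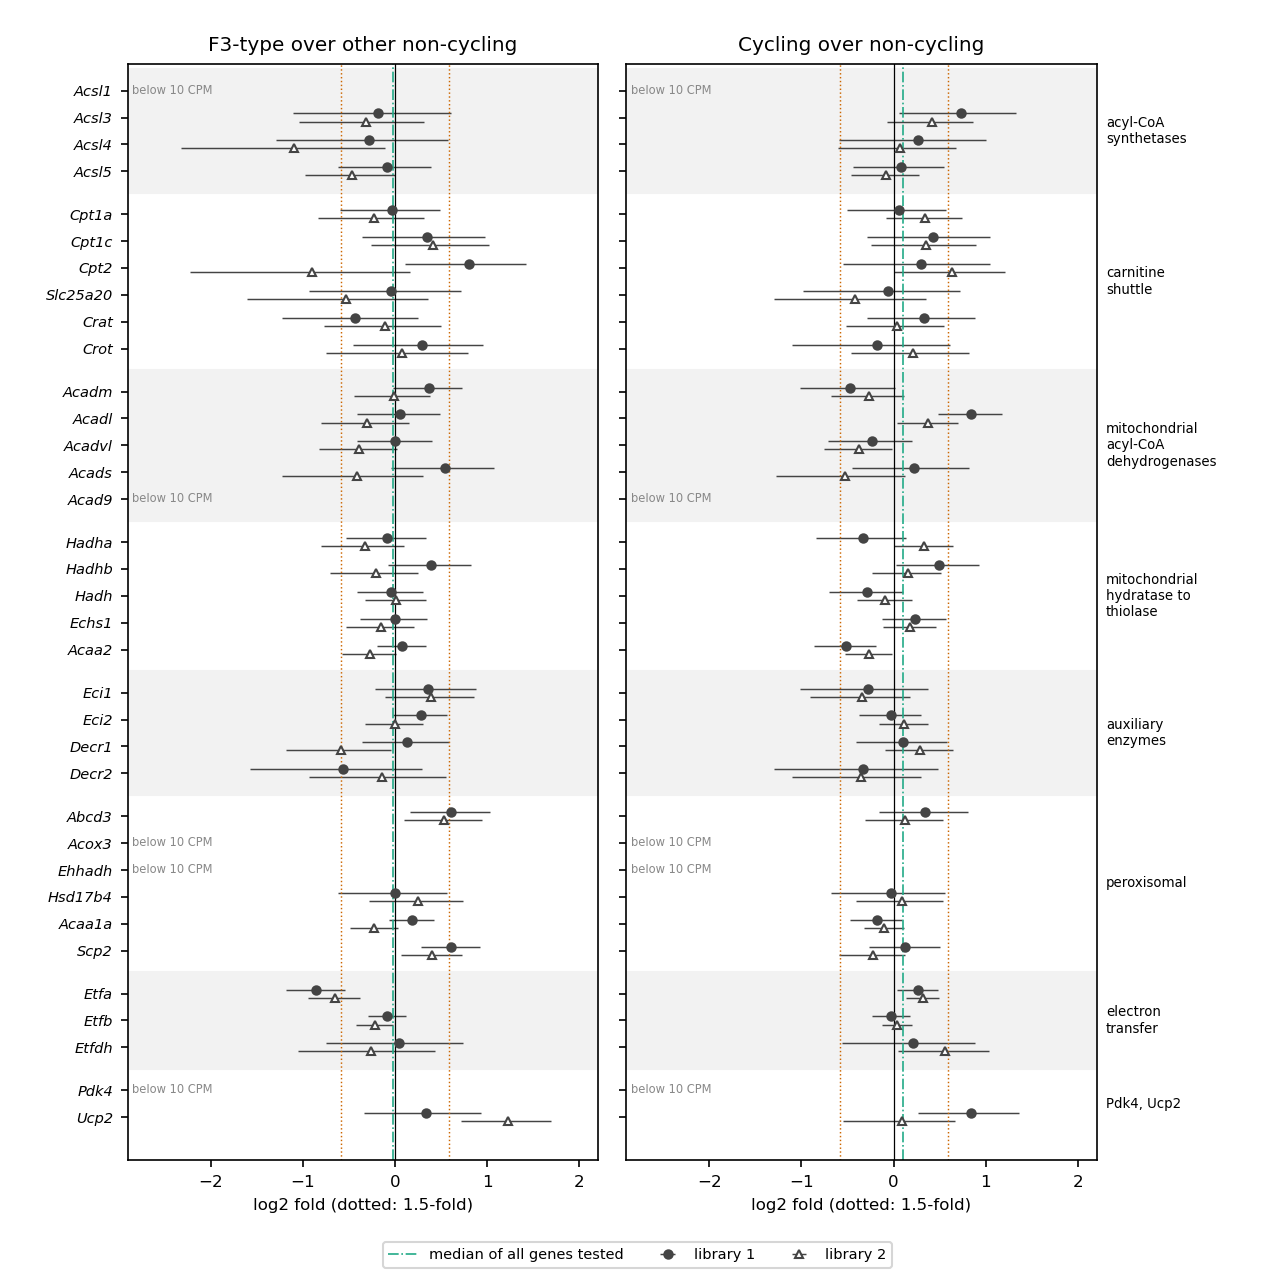
Log2 fold of F3-type over other non-cycling precursors (left) and of cycling over non-cycling precursors (right) for each member tested, library 1 filled and library 2 open, with 95% counting intervals, dotted lines at 1.5-fold and the dash-dotted line at the median of all genes tested. Etfa lies below 0 in F3-type cells and above 0 in cycling cells in both libraries.

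Library 2 was compared with library 1 over the progenitor-side, midway, committed-side and undetermined cells together, since the labels attach no condition to a suffix. No member was called among 29 tested, beside 0.342% of 6730 genes higher and 0.267% lower. The members' median log2 fold was -0.06, and 8 were above 0 and 21 below, while that of all genes was 0.00. The 3 synthetases tested were all above 0 and the 5 shuttle members tested all below. Each other step also had more members below 0 than above. Of all 6730 genes, 3410 were above 0 and 3320 below.

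Acsl3, a synthetase of the endoplasmic reticulum and lipid droplets, had 16.2 CPM in library 2 and 11.2 CPM in library 1, a log2 fold of 0.54 (0.36 to 0.72). Within states its library 2 value was higher each time, at 15.5 CPM in library 2 against 11.8 CPM in library 1 in progenitor-side cells, 18.4 CPM in library 2 against 11.6 CPM in library 1 in midway cells and 16.4 CPM in library 2 against 9.95 CPM in library 1 in committed-side cells. The call was passed in the midway cells (beside 0.862% of all genes higher and 0.935% lower) and in the committed-side cells (beside 0.498% and 0.392%), and not in the progenitor-side cells (beside 0.353% and 0.220%), and the difference between states was not tested. Acsl5 had 34.2 CPM in library 2 and 28.1 CPM in library 1 (log2 0.28, 0.17 to 0.40), with intervals above 0 in each of the 3 states. Acsl1, under the level minimum, had 167 UMIs in library 2 and 109 in library 1, a log2 fold of 0.59 (0.23 to 0.95). Acsl4 was at 0.15 with an interval that held 0. On the shuttle, Crot was at -0.24, Slc25a20 at -0.21 and Cpt1a at -0.16, each with an interval below 0, and Ucp2 was at -0.30 (-0.49 to -0.12). Markers of other cell types differed beside these values. The 5 erythroid markers summed to 20.4 CPM in library 2 and 865 CPM in library 1, the 8 immune markers to 18.4 CPM in library 2 and 28.6 CPM in library 1, and the 4 Schwann cell markers to 83.4 CPM in library 2 and 25.7 CPM in library 1. Their part in the library differences was not tested. Hadhb was at 0.21 (0.09 to 0.34) while Hadha, its partner across the shared start region, gave 1.17 UMIs per Hadhb UMI in progenitor-side cells of library 2 (1.06 to 1.31) and 1.58 in those of library 1 (1.41 to 1.78). In midway and committed-side cells the intervals of that ratio overlapped between the libraries. With 1 library of each kind, the milk fat condition, the animals and the library preparation cannot be told apart in these differences.

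**Figure D5:**
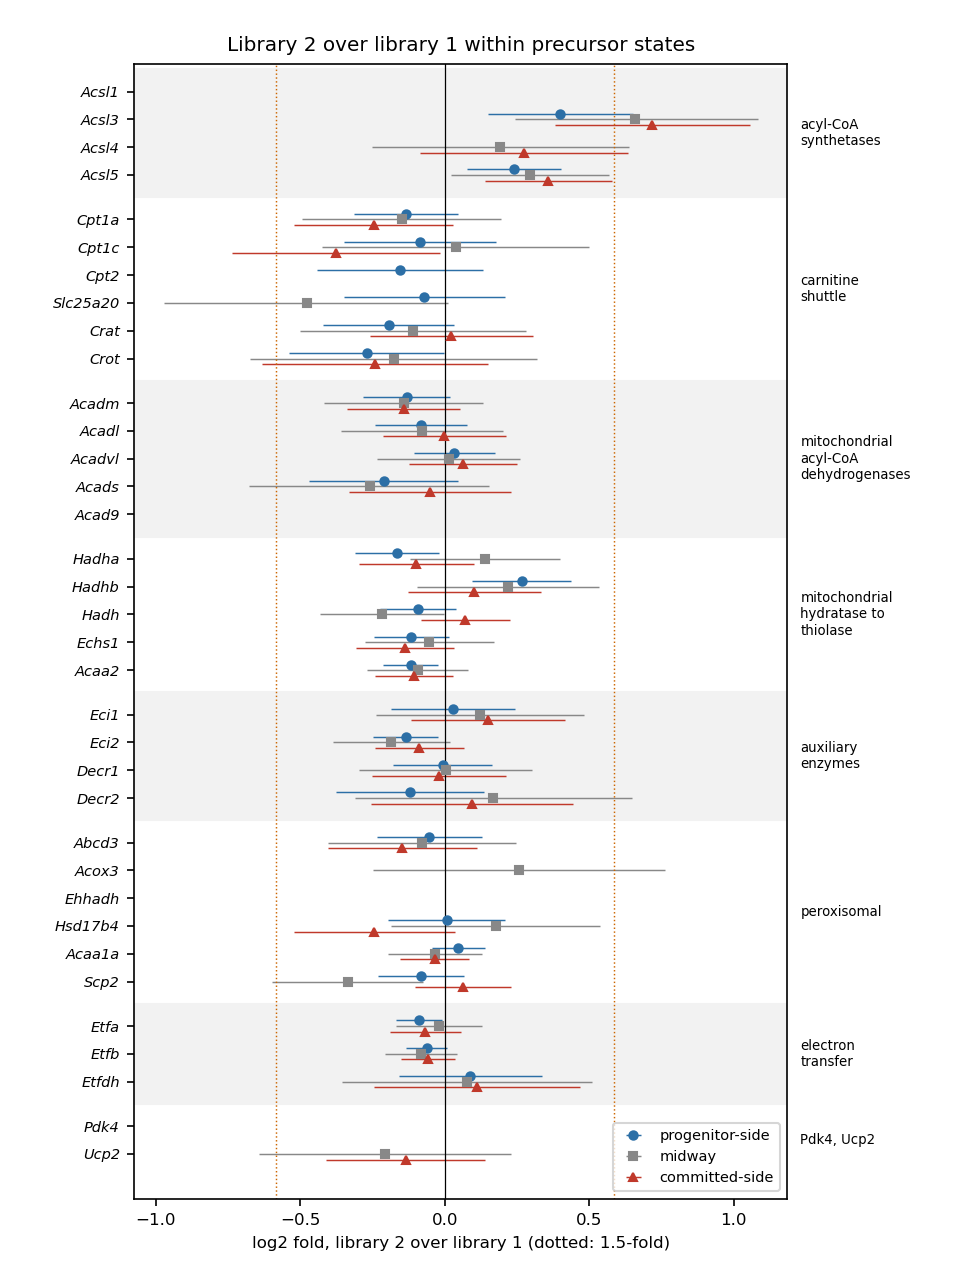
Log2 fold of library 2 over library 1 for each member with at least 10 CPM in that state, in progenitor-side, midway and committed-side cells, with 95% counting intervals and dotted lines at 1.5-fold. Acsl3 and Acsl5 lie above 0 in all 3 states. In progenitor-side cells 20 of the 28 members tested lie below 0 and 8 above.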

How the data were processed

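Each value used is a whole-number count of UMIs for 1 gene in 1 barcode, as deposited, with no normalization by the authors. The submitters' processing notes name Cell Ranger, without a version, Seurat 3.0.1 and the mm10 build but give none of them a role. Libraries were made with 10x Genomics 3′ V2 chemistry, per the labels, which call the cells fresh in 1 field and cryopreserved in another.

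The matrix had 6905 barcodes, 3584 with suffix 2 and 3321 with suffix 1, beside 3000 sorted cells stated per condition, and 17 barcode sequences occurred in both. Barcodes with at least 500 genes and at most 10% mitochondrial counts were kept, 3578 in library 2 with 43466636 UMIs and 3307 in library 1 with 42047267 UMIs. No doublet caller was run, and doublets remain. Barcodes with 4 UMIs from 2 genes of the endothelial or immune list, or 1% erythroid counts, were set aside. F3-type cells had 3 UMIs from 2 of their 6 markers and 4 times the mean share. Cycling cells had 2 UMIs of Mki67 and Top2a. A balance needed 5 marker UMIs.

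Counts were summed per state and library and scaled to CPM by total count. Intervals are exact at 95%, Poisson for levels and conditional for folds, and cover counting error only. A minimum of 10 CPM in either sum and 1.5-fold defined a call. The alternatives were TMM (edgeR 4.0.16) and DESeq2 1.42.0 size factors, used for scaling only, other minimums, folds, cuts and cell filters, thinning to 1 depth and each library alone. The summing and calling were tested on simulated data. All members were named, and surrounding genes where called, apart from results not reported here. Members, marker lists and gene lists were chosen with earlier results of these data known. Python 3.11.15 and R 4.3.3 were used. Gene positions are from the GENCODE annotation of GRCm38. No source used here says whether counting used strand, and 9 members have another gene at their 3′ end.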

Additional observations from a re-analysis of the deposited data

How the results depend on the processing

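Ucp2 was called higher in committed-side than progenitor-side cells under every alternative except the minimum of 50 CPM, which left it untested and gave 0 members higher, and its log2 fold lay between 0.97 and 1.38. A fold of 1.3, chosen after the data were seen, gave 2 members higher (Acads and Ucp2) and 3 lower (Cpt1a, Cpt2 and Etfa). With no level minimum 1 was lower (Pdk4), and with balance cuts at 0.2 and 0.8 1 was lower (Etfa). In F3-type cells Etfa had log2 folds from -0.85 to -0.39 over the alternatives. Its call was lost against committed-side cells alone (0 lower, and Abcd3 1 higher) and at 8 times the mean share, where 2 others, Acsl3 and Crat, were lower and 1, Abcd3, was higher. Abcd3 was also the 1 higher without cells holding an adipocyte-list UMI. A fold of 1.3 gave 2 higher there (Abcd3 and Scp2), library 1 alone 3 (Cpt2, Abcd3 and Scp2), library 2 alone 1 higher (Ucp2) and 2 lower (Acsl4 and Etfa), and thinning 1 higher (Ucp2). In cycling cells a fold of 1.3 gave 1 higher (Acsl3), library 1 alone 3 higher (Acsl3, Acadl and Ucp2), and 4 UMIs as the cycling minimum 2 lower (Slc25a20 and Eci1). Between libraries 1 was higher with no minimum (Acsl1), with a fold of 1.3 (Acsl3) and in committed-side cells only (Acsl3). The other 81 counts did not move by over 1.5 times, and no result changed direction to the point of a call. The cause of these shifts was not tested, beyond fewer cells or genes where the setting removes them. Members near 10 CPM are limited by depth in the F3-type and cycling cells. States were also compared within each library, which needs no condition label. No paired analysis between conditions was possible, because each has a single sample and no label ties it to a suffix.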

Other observations

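Barcodes set aside for endothelial or immune markers, 49 each, were set beside the precursors for the same genes. Ucp2 had 144.8 CPM in the endothelial-marker barcodes and 180.5 CPM in the immune-marker barcodes, against 13.0 CPM in the precursors. By library it was 151.5 and 138.5 CPM in the endothelial-marker barcodes and 242.3 and 117.5 CPM in the immune-marker barcodes of libraries 1 and 2. It was also at 120.9 CPM in the 19 erythroid-marker barcodes, all of library 1, with 28 UMIs. Scp2 had 154.2 CPM in endothelial-marker and 106.3 CPM in immune-marker barcodes, against 41.9 CPM in the precursors.

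In the endothelial-marker barcodes 18 of the 32 members with at least 10 CPM in either sum had counting intervals above the precursors, beside 37.0% of all 8127 such genes, and 1 was below, beside 14.7%. That 1 was Etfa, at 85.9 CPM in these barcodes against 112.5 CPM in the precursors. By library it had 58.6 CPM in library 1 and 111.3 CPM in library 2, so only library 1 stood clearly below the precursor level. The trifunctional subunits stood at 95.3 CPM for Hadha and 77.7 CPM for Hadhb, against 37.1 and 27.6 CPM in the precursors, and Acadl at 93.0 CPM in these barcodes against 32.5 CPM in the precursors. In libraries 1 and 2 Hadha had 92.8 and 97.7 CPM, Hadhb 48.9 and 104.5 CPM and Acadl 68.4 and 115.8 CPM. Hadh had 41.5 and 124.9 CPM and Acaa2 70.8 and 159.0 CPM, against 52.4 and 83.1 CPM in the precursors. Both were thus below the precursors in library 1, and the counts of members above were not split by library. Pdk4 had 7 UMIs in these barcodes, or 8.24 CPM, against 1.26 CPM in the precursors. These barcodes also carried 2552 CPM of precursor markers and 836 CPM of mural markers, against 12.9 CPM of mural markers in the precursors. Mature adipocyte markers summed to 160.1 CPM, against 3.81 CPM in the precursors, and brown or beige markers to 67.1 CPM, against 3.19 CPM. Over all barcodes set aside, the brown or beige list had 2.70 CPM in library 1 and 74.1 CPM in library 2. The part of these in the members' levels was not tested. In the immune-marker barcodes 5 of 30 such members had intervals above the precursors, beside 17.9% of all 7935 genes, and 2, Acadm and Hadh, below, beside 9.14%, so both counts were near the share of all genes. Their precursor markers summed to 2906 CPM and their mature adipocyte markers had 0 UMIs.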
